A study of Mus musculus with 5 samples.

Results

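Methyl-CpG capture and immunoprecipitation with an antibody to 5-methylcytosine (5mC) were compared directly in mouse embryonic stem cells. The comparison used 2 of the 5 libraries of the series, the 600 mM NaCl eluate of a methyl-CpG binding domain (MBD) column and the anti-5mC pulldown, with no input library as divisor. Per the labels, both came from E14 cells, as clones of the SIGTR gene-trap library at passages 11 to 14, grown free of feeders with leukaemia inhibitory factor and 10% fetal calf serum. The cells carry gene-trap insertions, and the labels do not say which clones, or whether the same clones, went into each library. For MBD capture, 1 µg of sonicated double-stranded DNA was bound by 2 µg of His6-GST-MBD, washed and eluted with salt, and sequencing adapters followed. For the pulldown, adapters were ligated first, and the DNA was then denatured and bound as single strands by 2 µg of antibody. A further 3 libraries were used only to describe the bins in which the pair differed. They were an 800 mM eluate of MBD capture and an anti-5hmC pulldown from the same clone collection, and an input from TNG cells, which carry a green fluorescent reporter at Nanog. There was 1 library of each kind. Assay, adapter order, clone and sequencing run therefore cannot be told apart, and every interval of reads or read ratios below covers counting error only.

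The 2 assays read the same base in different ways. An MBD binds CpG that is methylated on both strands of a DNA duplex, and holds a fragment more tightly the more methylated CpGs it carries. An anti-5mC antibody binds methylated cytosine in any sequence context, but only on a strand that has been opened. In embryonic stem cells in serum most CpGs outside active CpG islands are methylated, and Tet enzymes oxidise part of this 5mC to 5-hydroxymethylcytosine (5hmC). The comparison asks where duplex capture and single-strand pulldown coincide and where they part.

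Reads of 35 bp were used where the deposited column 4 was 0, at 1 read per position and strand. On chromosomes 1 to 19 these were 9523062 reads of MBD capture and 10260899 of anti-5mC, so depth was nearly equal, and 6812759 to 18154810 reads in the other libraries. Reads were placed by their midpoint in bins of 1, 10 or 100 kb and scaled to a common library size as RPM, with the library's reads on these chromosomes as the total. Bins with a read in any of the 5 libraries numbered 2296100, 237765 and 23930. The median 1 kb bin held 2 reads of MBD capture and 3 of anti-5mC, the median 10 kb bin 25 and 33, and the median 100 kb bin 289 and 367. The filter on column 4 removed 7.88% of the MBD reads and none of the anti-5mC reads. Of 118762 positions read on the same strand in both files, 9878 (8.32%) carried a 1 in the MBD file, so the filter left such positions in the anti-5mC library only.

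The assays ranked large regions almost alike and correlated less in smaller bins. Across 100 kb bins, the log2(RPM + 0.5) of MBD capture and anti-5mC correlated with r = 0.958, and the values for single autosomes ran from 0.951 on chromosome 14 to 0.973 on chromosome 15. At 10 kb the correlation was 0.869 (0.841 to 0.890 over autosomes) and at 1 kb 0.657 (0.630 to 0.683). Spearman's rho was 0.971, 0.878 and 0.589. Smaller bins hold fewer reads, which lowers a correlation by itself. The 600 mM and 800 mM eluates of MBD capture correlated with 0.985 at 100 kb, 0.934 at 10 kb and 0.818 at 1 kb. Bins are not independent replicates, since they share depth, mappability and base composition. Most of the plotted 10 kb bins lay along the diagonal at high density and above it, on the anti-5mC side, at low density.

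**Figure D1:**
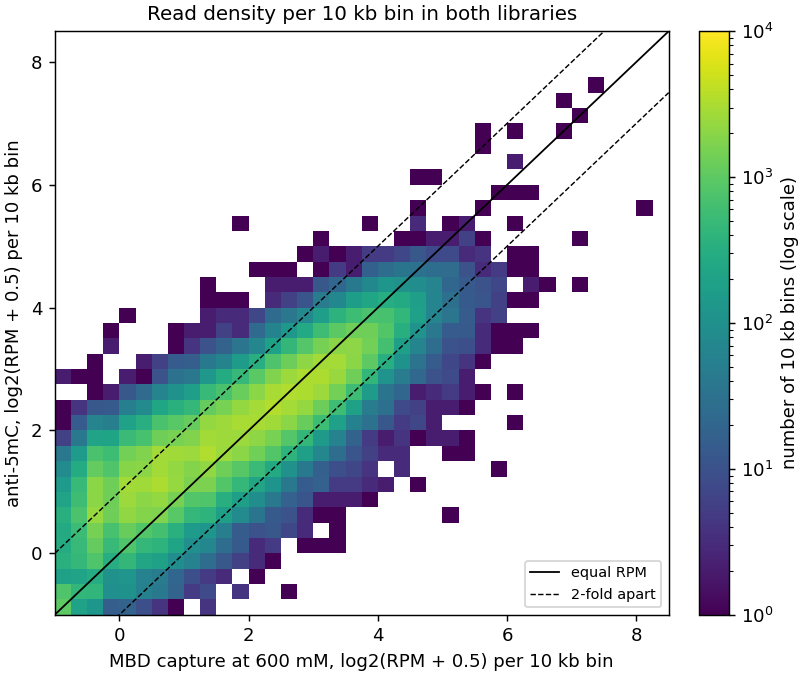
Read density of MBD capture at 600 mM NaCl (x axis) and anti-5mC (y axis) per 10 kb bin, both as log2(RPM + 0.5), with the number of bins as colour on a log scale. The solid line marks equal RPM and the dashed lines 2-fold; r is 0.869 over 237765 bins, and the cloud bends above the diagonal where both libraries are sparse.

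The strands of a single library set a scale for these values. In MBD capture, plus-strand and minus-strand reads of the same 1 kb bins correlated with r = 0.765. In anti-5mC they correlated with only 0.357, below the 0.444 of the unenriched input, which held more reads (16332177). This was also below the 0.657 of all anti-5mC reads with MBD capture, a value from both strands and so at greater depth. The anti-5hmC library, which was also pulled down as single strands, had 0.419 although it held 18154810 reads. At 10 kb the strand values were 0.937 for MBD capture, 0.721 for anti-5mC and 0.862 for input, and at 100 kb 0.988, 0.937 and 0.982. Reads of a single strand of each library, MBD plus against anti-5mC minus and the reverse, correlated with 0.499 and 0.499 at 1 kb. Across 1 kb bins, minus-strand anti-5mC reads thus followed plus-strand MBD reads more closely than they followed plus-strand anti-5mC reads.

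The densest bins coincided in part. Of the densest 1% of 1 kb bins in each library (22961 bins), 7143 were shared, which is 31.1% of each list (exact 95% interval 30.5 to 31.7%). At 10 kb 979 of 2378 were shared (41.2%, 39.2 to 43.2%) and at 100 kb 134 of 240 (55.8%, 49.3 to 62.2%). The intervals of these shares treat bins as independent draws, which they are not, and leave out the counting error of the reads. Beside these shares, the 600 mM and 800 mM eluates shared 45.7% of their densest 1 kb bins, and the 2 antibodies shared 37.3%. Among the densest 0.1% of 1 kb bins the pair shared 15.5% (356 of 2297), while the 2 antibodies shared 50.1%. Input shared 0.823% of the densest 1% with MBD capture and 0.971% with anti-5mC.

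Dense bins of a single assay were still well filled in the other. The 15818 bins among the densest 1% for MBD capture alone held a median of 35 MBD reads and 17 anti-5mC reads, which is percentile 95.9 of all bins for anti-5mC. The 15818 bins among the densest for anti-5mC alone held a median of 35 anti-5mC and 17 MBD reads, percentile 95.2 for MBD capture. At or below the median of the other library were 3.15% of the former and 3.02% of the latter. The lists differed in the libraries that were not used to form them. Of the anti-5mC-only bins, 37.7% were also among the densest 1% for anti-5hmC and 8.40% among those of the 800 mM eluate. Of the MBD-only bins, 11.1% were among the densest for anti-5hmC and 40.5% among those of the 800 mM eluate. For the 7143 shared bins these shares were 36.5% and 57.2%, and for all bins they are 1% by definition. Each list leaves out the densest bins of the other assay, which by itself lowers its share with the library most like that assay.

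MBD capture concentrated its reads more than the antibody did. In 1 kb bins, 32.5% held no MBD read and 17.7% no anti-5mC read. The densest 10% of 1 kb bins held 48.0% of the MBD reads and 41.7% of the anti-5mC reads, against 21.9% of the input reads. The sparser 50% held 4.57% of the MBD reads, 10.4% of the anti-5mC reads and 27.4% of the input reads. In 100 kb bins, the 90th percentile was 92.4 RPM for MBD capture and 78.4 RPM for anti-5mC, and the 10th percentile 7.14 and 14.7 RPM. The span between these percentiles was thus 12.9-fold with MBD capture, 5.32-fold with anti-5mC and 1.85-fold in input.

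The ratio between the assays accordingly rose with the density of the region. When 100 kb bins were ranked by both libraries together and cut into 10 equal parts, the sparsest part (2393 bins) held a mean of 5.21 RPM of MBD capture and 11.1 RPM of anti-5mC, a ratio of 0.469 (0.420 to 0.646 over autosomes). The densest part held 118 RPM of MBD capture and 93.6 RPM of anti-5mC, a ratio of 1.26 (1.19 to 1.34). The ratio rose at every step between. It lay below 1 on every autosome in each of the 6 sparsest parts and above 1 on every autosome in the 3 densest. Input was less uneven, at 30.4 RPM in the sparsest and 43.1 RPM in the densest part. Ranked by anti-5hmC, a library on neither side, the ratio was 0.611 in the sparsest part, 0.582 in the next and 1.24 in the densest.

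At 1 kb the relation took another form. Over classes of bins by anti-5hmC reads, the ratio of MBD capture to anti-5mC stayed between 0.970 and 1.04 from 1 to 40 reads, fell to 0.932 (0.825 to 1.03 over autosomes) at 41 to 80 reads, and to 0.541 (0.393 to 0.680) in the 3733 bins with 81 or more. Mean MBD density in the last class was 2.93 RPM and mean anti-5mC density 5.42 RPM. Over classes by MBD reads the ratio rose from 0.536 at 1 to 2 reads to 1.82 at 41 to 80 and 3.58 (2.35 to 5.198) at 81 or more, where anti-5mC had a mean of 3.95 RPM against 14.2 RPM of MBD capture. A class favours the library it is formed on. Formed on anti-5mC instead, the ratio fell from 1.31 at 1 to 2 reads to 0.671 at 41 to 80 and 0.613 at 81 or more, where MBD capture still had a mean of 6.53 RPM.

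**Figure D2:**
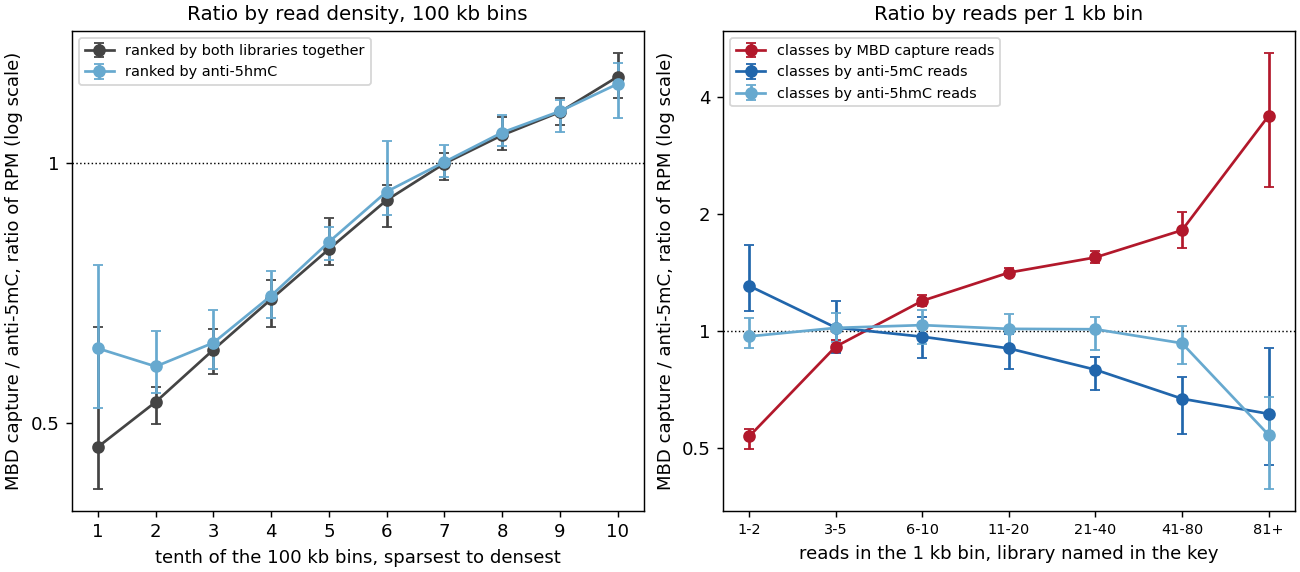
Ratio of MBD capture to anti-5mC RPM on a log scale, in 10 equal parts of the 100 kb bins from sparsest to densest (left) and in classes of 1 kb bins by their reads in the library named in the key (right). Points are summed over all autosomes and bars run from the lowest to the highest autosome; the left curves rise from 0.469 and 0.611 to 1.26 and 1.24, and on the right the curve by anti-5hmC reads is near 1 up to 40 reads and 0.541 at 81 or more.

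Bins past a fixed fold showed the same asymmetry at large scale. In 1 kb bins, 14666 (0.639%) were at least 3-fold higher with MBD capture and 15753 (0.686%) at least 3-fold higher with anti-5mC, on the scale of RPM + 0.5. The exact interval of the raw ratio lay wholly above 3 in 3774 of the former and wholly below its inverse in 4269 of the latter. In 10 kb bins, 4922 (2.07%) were at least 2-fold higher with MBD capture and 34440 (14.5%) with anti-5mC. In 100 kb bins, 493 (2.06%) were at least 1.5-fold higher with MBD capture and 7028 (29.4%) with anti-5mC. The median log2 ratio was 0 at 1 kb, -0.21 at 10 kb and -0.22 at 100 kb. Relative to these medians the counts were 10809 and 21503 at 10 kb and 2024 and 4667 at 100 kb. MBD-higher bins then made up 33.5% of the bins apart at 10 kb and 30.2% at 100 kb, against 12.5% and 6.55% without that shift. At high folds the 1 kb split turned to MBD capture, with 1573 and 1207 bins at 5-fold and 400 and 107 at 8-fold.

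Long stretches in which the antibody was higher were many, and long stretches of MBD excess were few. Consecutive 100 kb bins at 1.5-fold formed 430 runs of 5 or more bins on the anti-5mC side and 2 on the MBD side. The bins past the fold were 29.4% and 2.06% of all 100 kb bins, and the side with more such bins forms more runs by that alone. Runs relative to the median log2 ratio were not counted. The longest spanned 33 bins on chromosome 7 at 59300001–62600000, with 1465 MBD and 4269 anti-5mC reads, a ratio of 0.370 (interval 0.348 to 0.392). It held 17855 input reads, 8616 of anti-5hmC and 1032 of the 800 mM eluate. The longest MBD run covered 8 bins on chromosome 10 at 79100001–79900000, with 12223 MBD and 7094 anti-5mC reads, a ratio of 1.86 (1.80 to 1.91). At 1 kb, 94.6% of the MBD runs and 97.3% of the anti-5mC runs were a single bin. With only 0.639% and 0.686% of 1 kb bins past the fold, most runs are single bins by that alone. The log2 ratio of 1 kb bins correlated with that of the next bin at 0.134 and with that 100 kb away at 0.0465. MBD levels did so at 0.517 and 0.306 and anti-5mC levels at 0.367 and 0.203. With a median of 2 MBD and 3 anti-5mC reads per bin, counting error lowers these values. A ratio carries the counting error of both libraries.

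Whole autosomes differed little. The share of MBD reads over that of anti-5mC reads ranged from 0.908 (0.904 to 0.912) on chromosome 14 to 1.08 (1.08 to 1.09) on chromosome 11. The interval lay above 1 on 9 autosomes and below 1 on 8. Over the 19 autosomes the log2 ratio correlated with the log2 mean anti-5mC level at r = 0.946, a description in which both values share the library. Along the chromosome, 100 kb bins 5 to 20 Mb from the first read, at the centromeric end, were at 28.2 RPM of MBD capture and 31.8 RPM of anti-5mC, a ratio of 0.887 that exceeded 1 on 2 autosomes. Those 5 to 20 Mb from the last read were at 65.7 and 59.0 RPM, a ratio of 1.11 that exceeded 1 on 16 autosomes. In the last 1 Mb the ratio was 0.939, with values from 0.518 to 1.33 over autosomes.

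The bins apart were then described by the 3 libraries that had not been used to choose them. The 14666 bins with MBD excess averaged 2.13 RPM of the 800 mM eluate, 4.89-fold the mean of all 1 kb bins, and 65.6% of them were at 3 or more times that mean against 10.5% of all bins. Their anti-5hmC density was 0.890 RPM, 2.04-fold the mean of all bins. On the scale of RPM + 0.5, a 3-fold excess also selects bins dense in the higher library, so all bins are sparser. The bins with MBD excess held a median of 21 MBD reads. All bins with 11 to 20 and with 21 to 40 MBD reads averaged 1.52 and 2.72 RPM of the 800 mM eluate. Their anti-5hmC means were 0.903 and 1.32 RPM, so the bins with MBD excess were not above bins of like MBD density. The 15753 bins with anti-5mC excess averaged 1.88 RPM of anti-5hmC, 4.31-fold the mean of all bins, and 54.1% were at 3 or more times that mean against 6.82% of all bins. They averaged 0.338 RPM of the 800 mM eluate, 0.776-fold the mean of all bins, and held a median of 17 anti-5mC reads. All bins with 11 to 20 and with 21 to 40 anti-5mC reads averaged 0.999 and 1.598 RPM of anti-5hmC. Their 800 mM means were 1.34 and 2.16 RPM. Beside bins of like anti-5mC density, the bins with anti-5mC excess were thus higher in anti-5hmC and lower at 800 mM. Input was near its mean in the bins with MBD excess and in those with anti-5mC excess, at 0.985-fold and 0.953-fold. Of the MBD reads in the anti-5mC excess bins, counting both values of column 4, 18.3% carried a 1, against 7.84% over all bins and 6.42% in the MBD excess bins. The choice of the bins by MBD reads with a 0 moves this share by itself, up in the former and down in the latter. Among input reads, which were not used to choose the bins, 9.81% carried a 1 in the anti-5mC excess bins and 8.45% over all bins. With reads of either value of column 4 kept, 13049 and 14525 bins were apart at 3-fold.

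The 800 mM eluate and the anti-5hmC pulldown share no library with the main pair, although both eluates may stem from the same capture. At 3-fold, 2.21% of all 1 kb bins were higher in the 800 mM eluate than with anti-5hmC and 2.05% were lower. Among the bins with MBD excess in the main pair, 21.02% were higher in this second pair. Among those with anti-5mC excess, 42.6% were lower in it. All 1 kb bins held medians of 1 read at 800 mM and 4 of anti-5hmC, so fewer of them can pass 3-fold. Bins with MBD excess held medians of 11 and 11, and those with anti-5mC excess 1 and 26. Shares in bins of like density were not computed. At 10 kb and 2-fold the second pair had 6.94% of all bins higher and 24.2% lower, against 28.04% of the bins with MBD excess and 64.0% of those with anti-5mC excess. At 100 kb and 1.5-fold it had 7.92% higher and 36% lower, against 38.9% and 88.4%. Across bins the log2 ratios of the 2 pairs correlated with r = 0.415 at 1 kb, 0.599 at 10 kb and 0.831 at 100 kb. In 10 kb bins with anti-5mC excess the picture differed from that at 1 kb, in that anti-5hmC density was 0.661-fold and that of the 800 mM eluate 0.221-fold of the mean of all bins. These were sparse bins, with medians of 5 MBD, 23 anti-5mC and 66 input reads.

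The assays also differed in how reads were divided between the strands. In 1 kb bins with 20 to 39 reads, the fuller strand held a median of 57.1% of the MBD reads and 57.1% of the input reads, but 76.2% of the anti-5mC reads and 72.7% of the anti-5hmC reads. With 40 or more reads, where chance imbalance is smaller, the medians were 56.1% for MBD capture, 53.5% for input and 82.9% for anti-5mC. At least 80% of the anti-5mC reads lay on a single strand in 44.0% of the bins with 20 to 39 reads and in 58.6% of those with 40 or more. For MBD capture these shares were 2.16% and 5.31%. The imbalance was lower but present in 3 kb windows around bins with at least 20 reads, where the medians were 69.2% for anti-5mC, 54.3% for MBD capture and 54.5% for input. The fuller strand was largely the same with either antibody. In 42984 bins with at least 20 reads of each, the share of plus-strand reads correlated with r = 0.890 between anti-5mC and anti-5hmC. In 29069 such bins it correlated with 0.122 between anti-5mC and MBD capture.

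MBD capture fell short of the antibody where the antibody reads lay on a single strand. Bins with at least 20 anti-5mC reads were classed by the share on the fuller strand. The mean anti-5mC density varied only from 2.72 to 3.06 RPM between the classes. A choice of bins by anti-5mC reads favours anti-5mC in every class, so a ratio near 1 is not parity. In the 10649 bins with 50 to 60% on the fuller strand, MBD capture averaged 2.75 RPM, 0.994 of the anti-5mC density (0.850 to 1.14 over autosomes). The ratio was 0.962 at 60 to 70%, 0.819 at 70 to 80% and 0.668 at 80 to 90%. In the 14330 bins with 90% or more it was 0.539 (0.481 to 0.594), with 1.596 RPM of MBD capture. The share of bins at least 3-fold higher with anti-5mC was 3.30% in the most balanced and 19.5% in the least balanced class. Over the same classes anti-5hmC density rose from 1.43 to 2.17 RPM and the 800 mM eluate fell from 2.85 to 1.52 RPM. Classed instead by the strands of at least 20 anti-5hmC reads, the ratio of MBD capture to anti-5mC fell from 1.44 (1.31 to 1.54) to 0.449 (0.400 to 0.489).

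**Figure D3:**
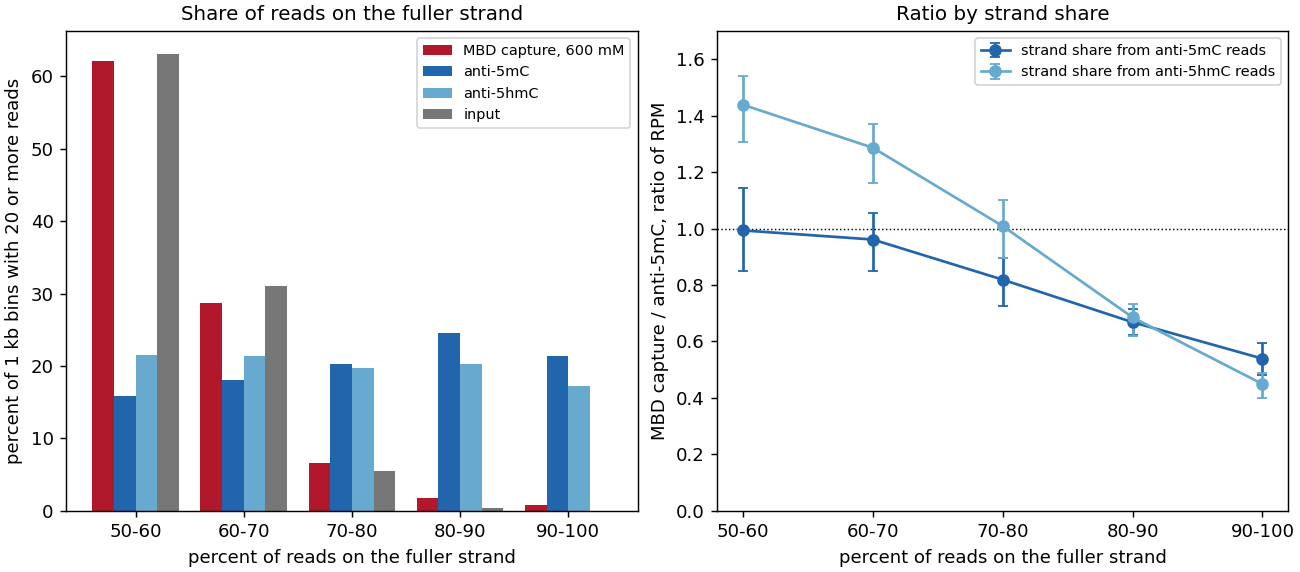
Percent of 1 kb bins with 20 or more reads of a library by the share of those reads on the fuller strand (left, bars from 0), and the ratio of MBD capture to anti-5mC RPM in bins classed by the strand share of either antibody (right; bars run from the lowest to the highest autosome). MBD capture and input have 62.1% and 63.1% of their bins at 50 to 60%, anti-5mC has 15.9%; the ratio falls from 0.994 to 0.539 with the strand share of anti-5mC.

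The reverse was seen in a small set of MBD bins. Of the bins with at least 20 MBD reads, 615 (0.777%) had 90% or more of these on a single strand. They averaged 3.78 RPM of MBD capture, 1.704 RPM of the 800 mM eluate, 0.844 RPM of anti-5mC and 0.664 RPM of anti-5hmC, a ratio of MBD capture to anti-5mC of 4.48 (3.30 to 9.45 over autosomes). In bins with 50 to 60% on the fuller strand the ratio was 1.64. Bins formed on MBD reads favour MBD capture in every class, and the mean MBD density of the classes lay between 2.92 and 3.78 RPM. The bias of MBD reads depended on the bin width. In 3 kb windows around bins with at least 20 MBD reads, only 0.374% had 80% or more on a single strand. For anti-5mC the same share was 23.9%. Edge effects of the 1 kb bins on this set were not tested.

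Bins with anti-5mC excess were more strand-biased than the rest of the antibody library. Among those with 40 or more anti-5mC reads (1505 bins), the fuller strand held a median of 89.1%, and 80.3% of them had at least 80% on a single strand. Bins within 3-fold of MBD capture had a median of 81.4%, and bins with MBD excess a median of 64.9% (129 bins). The same order was found with anti-5hmC, which was not used to choose the bins, at 90.9%, 73.3% and 60.5%. Input reads could be compared in few of the bins with anti-5mC excess. In the 103 with 20 to 39 input reads the median was 57.1%, the same as in all bins with that many. In the 5 bins that held 40 or more it was 52.3%.

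Fragment geometry also differed. The distance from a plus-strand read to minus-strand reads downstream peaked at 260 to 264 bp with MBD capture, where there were 11.5 times as many pairs as an even spread of the reads over all bins would give. In the 800 mM eluate the peak was at 250 to 254 bp and 13.3 times. Anti-5mC had no sharp peak. Its value was 2.695 times at 130 to 134 bp, 2.75 times at its maximum at 185 to 189 bp and 2.699 times at 220 to 224 bp. Input peaked sharply, from 1.37 times at 165 to 169 bp to 2.31 times at 190 to 194 bp and back to 1.34 times at 215 to 219 bp. Offsets under 60 bp were left out of the search for the maximum.

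Mean profiles around the bins give the levels beside them. A fall beside bins chosen as dense is set by that choice in the libraries that chose them. Over the bins among the densest 1% of both libraries, MBD capture averaged 0.546 RPM per 100 bp within the bin and 0.176 RPM from 1 kb to 1.5 kb from its centre. Anti-5mC averaged 0.466 and 0.129 RPM. The surroundings of bins with MBD excess were themselves dense. At the outer ends of their 5 kb flanks, MBD capture was at 1.99-fold and anti-5mC at 1.59-fold the mean of all bins. Around bins with anti-5mC excess these values were 1.19-fold and 1.20-fold. Within bins with anti-5mC excess, anti-5hmC rose with the antibody signal to 3.65-fold its level at those ends, while the 800 mM eluate was at 0.663-fold. Within bins with MBD excess, the 800 mM eluate stood at 2.44-fold and anti-5hmC at 1.30-fold of their levels at the ends of the flanks.

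**Figure D4:**
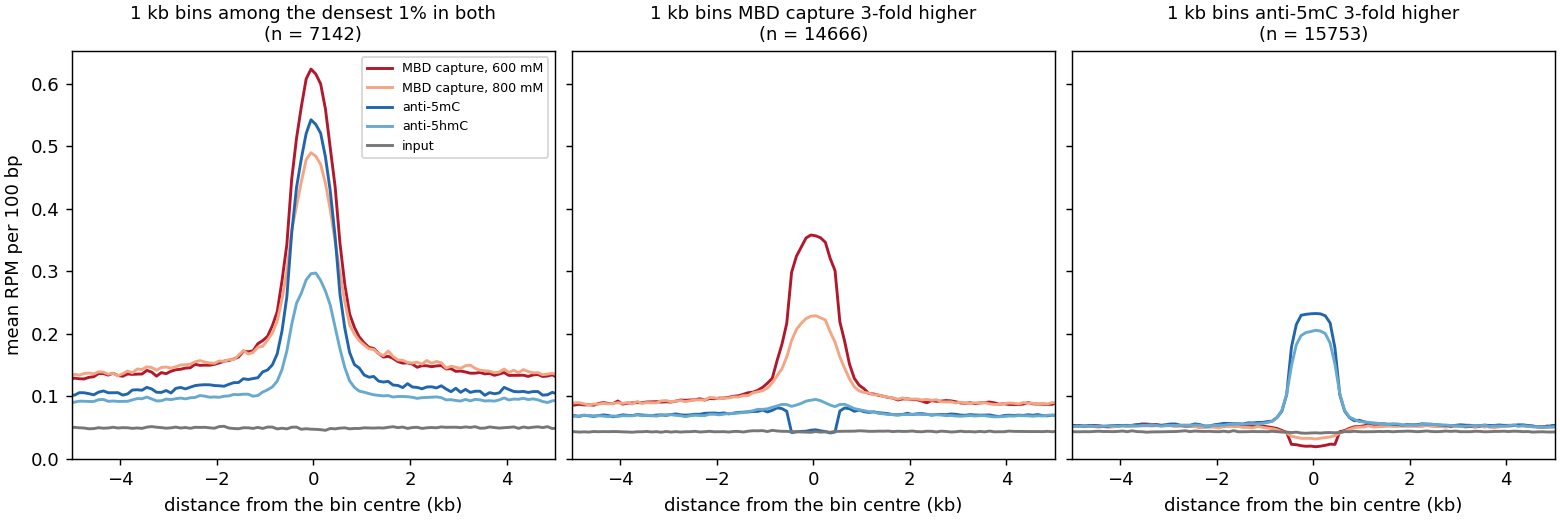
Mean RPM per 100 bp of the 5 libraries against the distance from the bin centre in kb, for 1 kb bins among the densest 1% in both libraries, bins at least 3-fold higher with MBD capture and bins at least 3-fold higher with anti-5mC. The step in MBD capture at 600 mM and anti-5mC in all 3 panels is set by the choice of bins; the 800 mM eluate, anti-5hmC and input were not used for it, and of these anti-5hmC averages 0.188 RPM per 100 bp within the bins with anti-5mC excess.

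The largest single differences at 1 kb are given by position in mm9. A rule named the 10 bins with the largest log2 ratio in each direction, with at least 20 reads in the higher library and at least 1 input read, so they are extremes of the ratio by choice. Among the 10 with MBD excess, MBD reads ranged from 116 to 369 and anti-5mC reads from 1 to 11, with 20 to 165 reads at 800 mM, 1 to 32 of anti-5hmC and 2 to 10 of input. The first, on chromosome 18 at 22512001–22513000, held 332 MBD, 2 anti-5mC, 148 reads at 800 mM, 1 anti-5hmC and 10 input reads. Its log2 ratio was 5.67, and the raw ratio 179 (49.1 to 1483). Its MBD reads were spread over both strands, 153 on the plus strand and 179 on the minus strand.

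The second, on chromosome 10 at 13140001–13141000, held 340 MBD, 6 anti-5mC, 165 reads at 800 mM, 16 anti-5hmC and 5 input reads, a raw ratio of 61.1 (27.8 to 168). All 6 of its anti-5mC reads, and 15 of its 16 anti-5hmC reads, lay on the plus strand. The third, on chromosome 10 at 80606001–80607000, held 180 MBD reads and 1 anti-5mC read, a raw ratio of 194 (34.4 to 7702), and only 31 reads at 800 mM. A bin on chromosome 2 at 25433001–25434000 had the most MBD reads of the 10, with 369 against 11 of anti-5mC, a raw ratio of 36.1 (19.97 to 73.0), and 48 at 800 mM. The others lay on chromosomes 3, 5, 6, 7 and 11. In all 10 the 800 mM eluate was above anti-5mC in RPM. In 8 of the 10 anti-5hmC was above anti-5mC in RPM, and in 4 anti-5mC was below input.

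In the 10 bins with the largest anti-5mC excess, anti-5mC reads ranged from 60 to 141 and MBD reads from 0 to 4, with 0 to 4 reads at 800 mM, 70 to 266 of anti-5hmC and 1 to 22 of input. The first, on chromosome 11 at 5971001–5972000, held 115 anti-5mC reads and 1 MBD read, a raw ratio of 107 (18.8 to 4252). Its anti-5hmC reads numbered 263, its 800 mM reads 0 and its input reads 6. Of its anti-5mC reads 114 lay on the minus strand and 1 on the plus strand, and of its anti-5hmC reads 260 and 3. The bin was thus dense with both antibodies, on the same strand, and almost empty with MBD capture.

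The next, on chromosome 15 at 88406001–88407000, held 82 anti-5mC reads and no MBD read, 25.4-fold higher with the antibody when 3 reads stand in for the missing MBD reads and at least 20.2-fold by the lower end of the exact interval. All 82 lay on the minus strand, as did 152 of its 162 anti-5hmC reads. A bin on chromosome 4 at 154062001–154063000 held 81 anti-5mC reads, all on the minus strand, 249 of anti-5hmC and no read of either eluate. In the same way it was 25.1-fold higher with anti-5mC, and at least 19.9-fold by the lower end of the interval. A bin on chromosome 5 at 129835001–129836000 was biased to the plus strand, with 94.4% of 107 anti-5mC and 98.6% of 210 anti-5hmC reads on it, against 3 MBD reads. In 5 of the 10 there was no MBD read. In 7 of the 10 at least 90% of the anti-5mC reads were on a single strand, and in 9 the anti-5hmC reads had the same fuller strand. The exception, on chromosome 18 at 43135001–43136000, held 30 anti-5mC reads on each strand, 70 anti-5hmC reads and 22 input reads.

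**Figure D5:**
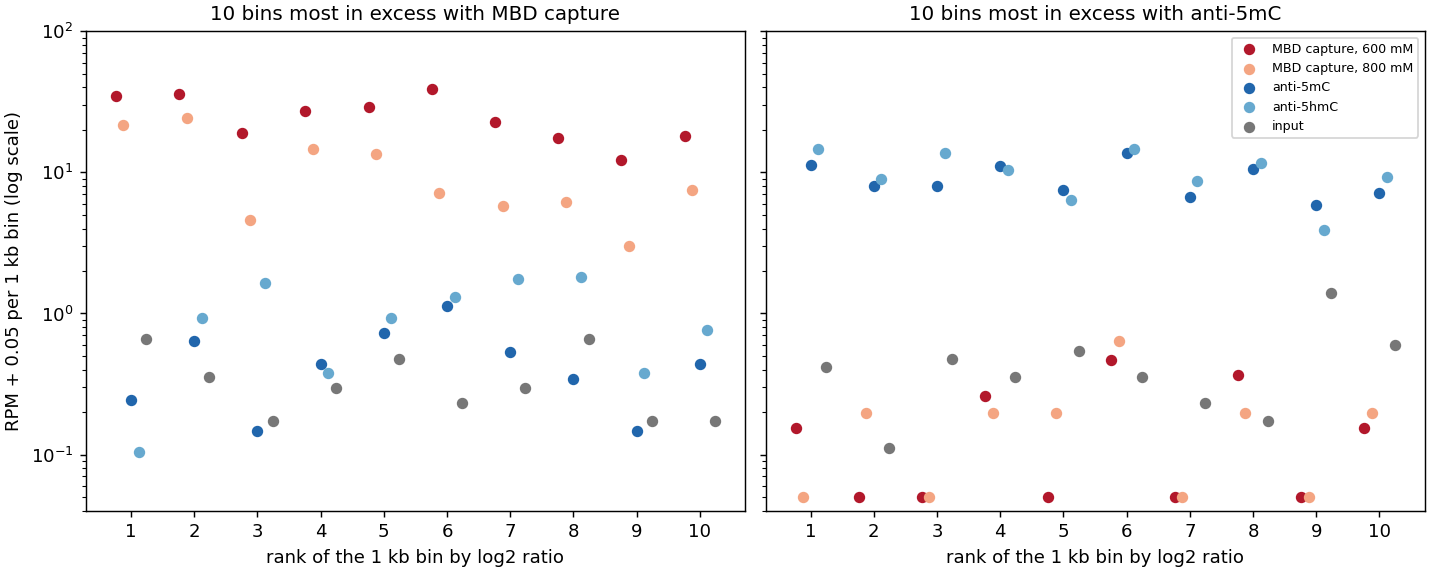
RPM + 0.05 per 1 kb bin in the 5 libraries on a log scale, for the 10 bins with the largest excess of MBD capture (left) and of anti-5mC (right), ordered by log2 ratio. On the left the 800 mM eluate follows MBD capture with 20 to 165 reads; on the right anti-5hmC follows anti-5mC with 70 to 266 reads, and both eluates hold 0 to 4.

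At 10 kb the named MBD bins were partly the same places and partly chromosome ends. The bin on chromosome 10 at 80600001–80610000 held 512 MBD and 21 anti-5mC reads, a raw ratio of 26.3 (17.0 to 42.8), and that on chromosome 2 at 25430001–25440000 held 708 and 41, a raw ratio of 18.6 (13.6 to 26.2). Of the 5 bins, 2 lay within 1 Mb of the first read of their chromosome, on chromosomes 16 and 17. The 5 bins with anti-5mC excess held 64 to 133 anti-5mC and 0 to 5 MBD reads, with 81 to 412 anti-5hmC and 14 to 78 input reads. The fuller strand held a median of 84.3% of their anti-5mC reads. A bin on chromosome 3 at 156090001–156100000, for example, had 125 of 133 anti-5mC and 402 of 412 anti-5hmC reads on the minus strand, and 5 MBD reads.

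At 100 kb the named differences were smaller with MBD excess than with anti-5mC excess. A bin on chromosome 2 at 174800001–174900000 held 361 MBD and 82 anti-5mC reads, a raw ratio of 4.74 (3.72 to 6.11). Another, on chromosome 17 at 39900001–40000000 held 2579 and 698, a raw ratio of 3.98 (3.66 to 4.33). The other 3 bins with MBD excess were the first of chromosomes 3, 17 and 19. The bin with the largest anti-5mC excess, on chromosome 4 at 113400001–113500000, held 60 anti-5mC, 2 MBD, 98 anti-5hmC and 369 input reads, a raw ratio of 27.8 (7.38 to 235). Next was chromosome 14 at 9600001–9700000, with 243 anti-5mC and 29 MBD reads, a raw ratio of 7.78 (5.28 to 11.9). In both, the strands of anti-5mC were nearer to balance, at 30 of 60 and 96 of 243 reads on the plus strand. The bin at 3600001–3700000 of chromosome 14 differed from them, with 39 of 43 anti-5mC and 48 of 50 anti-5hmC reads on the plus strand, 3 MBD reads and 2 input reads. In 4 of these 5 bins MBD capture was below input in RPM. In 3 of the 5, the 2 largest excesses among them, anti-5mC was below input as well.

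Of the bins that were highest in both assays, several also held many input reads, beside a median of 7 over all 1 kb bins. At 1 kb the first was on chromosome 11 at 3093001–3094000, with 890 MBD, 653 anti-5mC and 174 input reads, and the bins on chromosomes 2 and 9 held 263 and 142 input reads. A further 590 MBD reads of the first bin carried a 1 in column 4 and were not counted. An exception was chromosome 5 at 148019001–148020000, with 360 MBD and 294 anti-5mC reads on 9 input reads, a raw ratio between the assays of 1.32 (1.13 to 1.54). It held 84 reads at 800 mM and 70 of anti-5hmC, and its anti-5mC reads were balanced, at 127 plus and 167 minus. At 100 kb, the bin on chromosome 17 at 30800001–30900000 held 2743 MBD and 2751 anti-5mC reads on 817 input reads, a ratio of 1.07 (1.02 to 1.13). The first bin of chromosome 9 was also dense in both, but with 2017 MBD and 4175 anti-5mC reads its ratio was 0.521 (0.493 to 0.549).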

How the data were processed

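Each deposited file lists aligned reads of 35 bp with position and strand. The alignment used BWA 0.5.8 and mm9, per the submitters' processing notes. Of the deposited columns, the last holds a count of reads and column 4 a score of 0 or 1, with no meaning stated in the labels. No per-sample columns were left unused (0). Reads with column 4 at 0 on chromosomes 1 to 19 were counted by midpoint in 1, 10 and 100 kb bins at 1 read per position and strand, and scaled to RPM (9523062 MBD and 10260899 anti-5mC reads). Ratios are log2((RPM + 0.5)/(RPM + 0.5)), which pulls sparse bins toward 1. Raw ratios carry exact 95% Clopper-Pearson intervals on the conditional binomial. PCR copies were not tracked by molecular identifiers, so these intervals hold counting error alone. With 1 library per side no test was possible and no p-value is given.

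Bins were apart at 3-fold (1 kb), 2-fold (10 kb) or 1.5-fold (100 kb). Named bins are the 10 (1 kb) or 5 (10 and 100 kb) with the largest log2 ratio in each direction, with at least 20 reads in the higher library and 1 input read, and the 5 with the largest smaller RPM of the pair. A bin within 10 bin widths of one already named was passed over. The comparison, its folds and its rules were chosen with earlier results of these data known. The fold threshold and the intervals were tested on counts simulated per bin, with known changes in well-filled bins only. The placing of reads in bins was not tested this way. Python 3.11.15 was used with numpy 2.4.6, scipy 1.17.1, pandas 2.3.3 and matplotlib 3.10.9. Sequences, genes and CpG content of bins were not analysed here, since no mm9 genome was used. Alternatives changed the pseudocount, read filter, bin set and offset, scaling, eluate, strand, read position and fold.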

Additional observations from a re-analysis of the deposited data

Results flagged for a closer look

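Some reads outside the main measurement also carried signal. The MBD reads with a 1 in column 4, which were not used, had 7.20% of their number (58410 of 810813, exact 95% interval 7.15 to 7.26%) in the densest 1% of anti-5mC 1 kb bins. The input reads with a 1 had 1.5001% there, and the MBD reads with a 0 had 6.62%.

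Reads on unplaced sequence of unknown chromosome were also outside the comparison. There MBD capture was at 1.52-fold the input RPM (1.47 to 1.56) and anti-5mC at 4.20-fold (4.10 to 4.30), from 8717, 25979 and 9847 reads of MBD capture, anti-5mC and input.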

How the results depend on the processing

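Counts are given as MBD-higher and anti-5mC-higher bins. With a pseudocount of 0.1 RPM there were 167105 and 250899 bins at 1 kb (r 0.617) and 7565 and 52150 at 10 kb (r 0.853). With 1 RPM there were 3097 and 2250 at 1 kb, and 17554 anti-5mC-higher bins at 10 kb. With every bin kept, empty ones included, r at 1 kb was 0.679. Spearman's rho was 0.589 at 1 kb and 0.971 at 100 kb. Setting the median log2 ratio to 0 gave 10809 and 21503 bins at 10 kb and 2024 and 4667 at 100 kb. Stricter folds of 4, 3 and 2 gave 3842 and 3741, 686 and 7913, and 37 and 2835. The densest 0.1% were shared at 15.5%, 24.8% and 62.5% from 1 to 100 kb.

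The 800 mM eluate gave 27429 and 24326 bins at 1 kb with r 0.626 and 23.6% of the densest 1% shared. At 10 kb it gave r 0.848 and 35.4% shared, and at 100 kb 950 MBD-higher bins and r 0.9502. Plus-strand reads alone gave 51848 and 42557 bins at 1 kb, 13515 MBD-higher bins at 10 kb and 969 at 100 kb. Their r was 0.524, 0.798 and 0.941, and the shared part 21.03%, 28.9% and 47.5%. Minus-strand reads gave 51896 and 42654, 13830 and 1006, with r 0.524, 0.797 and 0.940 and 21.03%, 28.5% and 43.8% shared. Single strands hold fewer reads per bin; apart from that the cause was not tested. Keeping every deposited read with column 4 at 0 used the same reads, since the files held no repeats to remove. Its identical counts were therefore fixed in advance. The split at 1 kb thus turned between alternatives, with MBD-higher bins at 39.98% of those apart at a pseudocount of 0.1 RPM and 57.9% at 1 RPM. At 10 and 100 kb anti-5mC-higher bins were more numerous in each of these alternatives. With the median set to 0 and the fold raised as well, the 10 kb split turned, to 165 and 142 bins at 5-fold and 31 and 12 at 8-fold.

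No paired analysis was possible because each group has 1 library. The median 1 kb bin held 2 MBD and 3 anti-5mC reads, so most single 1 kb bins cannot show a 3-fold difference at this depth. Library preparation, clone and sequencing cannot be told apart from the assay.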
